A study of Rattus norvegicus with 2 samples.

Results

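The heat shock proteins and endoplasmic reticulum (ER) chaperones described here are 10 genes: the cytosolic Hspa8, Hspa1a, Hsp90ab1 and Stip1, the mitochondrial Hspd1 and Hspe1, the ER proteins Hspa5, Canx and Calr, and the stress-induced enzyme Hmox1. Their members are all probe sets to which the platform's annotation gives 1 gene symbol and that symbol is in the set, which found 23 of the 8799 probe sets. They cover 9 of the 10 genes, and 9 of the 4736 genes that the arrays measure in this way, since every probe set listed for Hspa8 carries a second symbol and gives no value of its own here. Both RNA samples came from Sprague Dawley rats at postnatal day 70. The first was RNA of synaptosomes, a biochemical fraction of detached nerve endings with the postsynaptic membrane that adheres to them, prepared from the hippocampus. The second was RNA of the whole hippocampus. The labels name no treatment, genotype or number of animals, and each sample was hybridised to 1 Affymetrix rat array, so every value below is a single measurement, and the groups could not be tested against each other.

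Chaperones bind unfolded or newly made proteins and keep them from aggregating until they fold. In the cytosol the Hsp70 and Hsp90 families work in sequence, with cochaperones that hand clients from one to the other, and at nerve terminals they also serve the folding cycle of synaptic vesicle proteins. In mitochondria imported proteins fold inside the Hsp60 and Hsp10 chamber. In the ER the Hsp70 protein BiP and the lectin chaperones calnexin and calreticulin fold membrane and secreted proteins, among them the channels and receptors of the synapse. Transcription of the cytosolic and mitochondrial genes is raised by heat shock factors through heat shock elements, and that of the ER genes by the unfolded protein response through the ER stress response element.

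Of the 10 genes, 9 had a promoter window in RefSeq (assembly GRCr8), which runs from 250 bases before to 50 bases after the annotated start. For Canx, Hspd1 and Hsp90ab1 the start used for the window lies inside the gene range given below, not at its outer end. The ER stress response element, searched on both strands as CCAAT and CCACG with any 9 bases between them, lies in 0.0657% of the 33469 windows. It is present in the windows of Hspa5, Canx and Calr and in no window of the other 6 genes. The heat shock element, searched on both strands as GAA, TTC and GAA with any 2 bases between neighbours, lies in 0.798% of the windows and is present in those of Hspa8, Hspd1 and Hspe1. The ER element contains the CCAAT box, which by itself is in 37.5% of the windows. A match describes letters in this window only. The stretches around these elements are shown because they separate the ER genes from the mitochondrial pair, the same division by which the array values are compared below. Capitals mark the fixed letters of the element, and each stretch is written in the direction of its gene.
Hspa5, chr3:38452938-38453026, plus strand: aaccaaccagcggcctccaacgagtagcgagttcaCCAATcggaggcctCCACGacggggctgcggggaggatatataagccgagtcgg
Calr, chr19:40213117-40213188, plus strand: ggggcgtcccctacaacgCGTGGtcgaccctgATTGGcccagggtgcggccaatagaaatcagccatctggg
Canx, chr10:35158034-35158107, minus strand: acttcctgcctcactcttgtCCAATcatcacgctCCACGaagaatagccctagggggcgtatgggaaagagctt
Hspe1, chr9:64084227-64084314, plus strand: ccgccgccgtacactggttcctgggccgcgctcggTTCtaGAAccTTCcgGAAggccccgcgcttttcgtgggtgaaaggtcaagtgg
In Hspa5 the element spans positions -43 to -25 from the start, in Canx -230 to -212, and in Calr -232 to -214 on the opposite strand. The Canx positions count from the start used for its window, inside the gene range. The element itself, at 35158069 to 35158087, lies upstream of the outer end of that range at 35157954. In Hspe1 2 overlapping matches, one on each strand, span positions -65 to -48. Hspd1 and Hspe1 lie head to head on chromosome 9, Hspd1 on the minus strand from 64073610 to 64084332 and Hspe1 on the plus strand from 64084327 to 64087415. Their windows share 211 bases, from 64084077 to 64084287, and the heat shock element shown for Hspe1 is the one found in the Hspd1 window. This element, at 64084262 to 64084279, lies before the start used for the Hspd1 window. It also lies inside the range given for Hspd1, which extends to 64084332.

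The deposited values are linear intensities on both arrays, and some are negative. A signal under 846, the median of all non-control values, was set to that floor before log2 was taken. The log2 ratio is synaptosomes minus total hippocampus, less the median ratio of -0.17, and a ratio of 1 is a 2-fold difference. A probe set counted only if its mean log2 signal reached 10.07, the median over the array, and 4370 probe sets of 2735 genes did. Where 1 array lies at the floor the fold is a bound, written "at least". On the array as a whole 25.2% of the synaptosome values and 31.4% of the hippocampus values were at or below 0. Of the negative values, 95% were smaller in size than 2912.6 in synaptosomes and 5280.25 in the hippocampus. These are called the noise sizes below, and a signal under them is of the order of the noise. Error could be gauged only from genes with several probe sets, whose ratios had a standard deviation (SD) within a gene of 0.90 on the log2 scale over 658 genes. This is called the within-gene SD. It is the spread of single probe sets on the same 2 arrays, bounds included, so medians and means set beside it are on an unlike scale. It does not measure variation between samples. The actin control probe sets read 7.79 times higher at the 3′ end than at the 5′ end in synaptosomes and 4.96 times in the hippocampus, while for GAPDH these quotients were 1.07 and 1.05. The part of such a 3′ to 5′ difference in the ratios below was not tested.

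Of the 23 chaperone probe sets, 19 passed the filter and 17 of these lay above the floor on both arrays. Both signals exceeded the noise size in 14. By the median of their probe sets, the ER chaperones of the set read higher in synaptosomes and the mitochondrial ones slightly lower, while the cytosolic genes were divided. The median ratio was 0.78 over 8 ER probe sets, -0.24 over 4 mitochondrial probe sets and -0.14 over 6 cytosolic ones, against 0 by construction over all 4370. Each of these medians was smaller in size than the within-gene SD of 0.90. Positive ratios were found for 7 of the 8 ER and 0 of the 4 mitochondrial probe sets, where 50% of all had one. These probe sets are not independent, since they come from 3 ER and 2 mitochondrial genes and some pairs share a source sequence. With the brightest probe set of each gene, the median was 0.50 over the 3 ER genes and -0.41 over the 2 mitochondrial ones. The cytosolic median turned to 0.33 with quantile normalization and 0.37 with loess correction. At least 2-fold higher were 4 of the 8 ER probe sets, 0 of the 4 mitochondrial and 1 of the 6 cytosolic ones. Of the 4 ER probe sets, 3 were of Canx. At least 2-fold lower was 1 cytosolic probe set. Over all filtered probe sets the 2-fold rule called 19.1% higher and 14.9% lower, so a single call of either kind is a common event on these arrays.

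**Figure D1:**
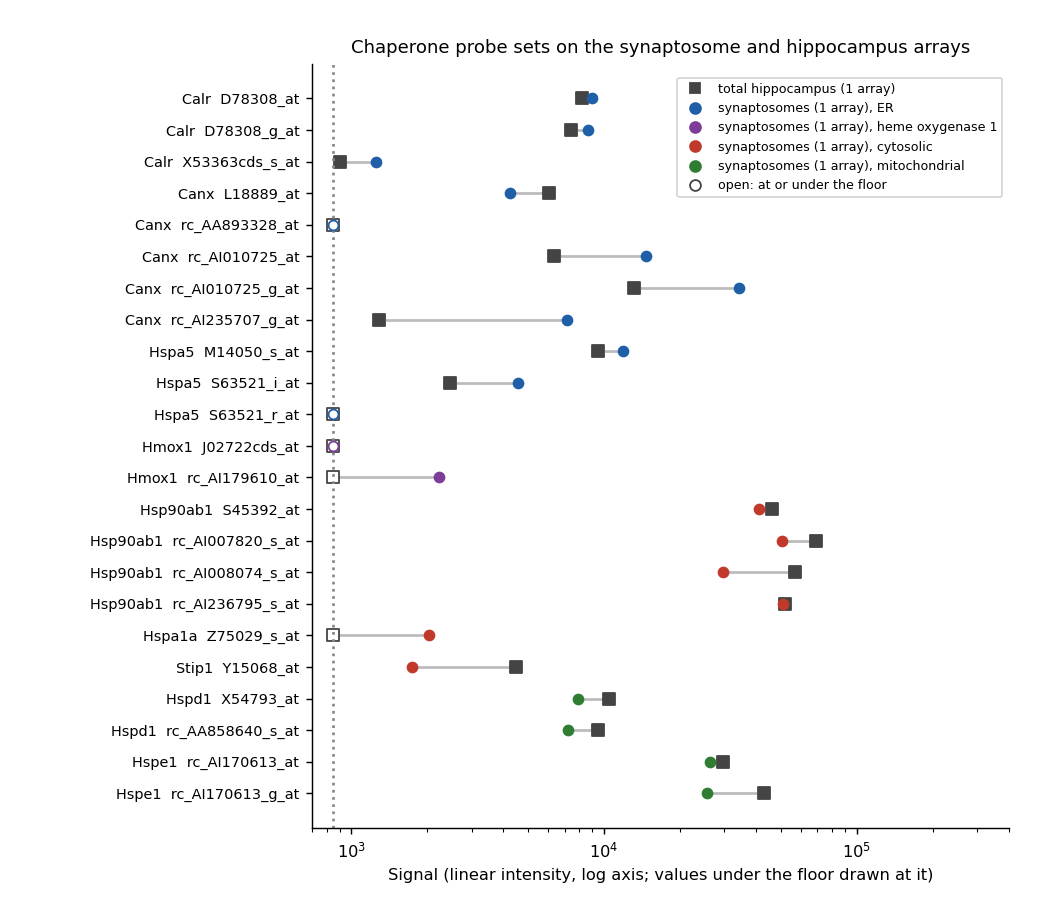
Signal of each of the 23 chaperone probe sets on the synaptosome array (circles, coloured by compartment) and the total hippocampus array (squares), on a log axis; the dotted line is the floor of 846, and open symbols are values at or under it. The circles lie to the right of the squares for the ER probe sets above the floor except Canx L18889_at, and to the left for all 4 mitochondrial ones.

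Calnexin, encoded by Canx (chromosome 10, 35124941 to 35157954, minus strand), is a membrane lectin that holds newly made glycoproteins in the ER. One of its probe sets had the largest ratio of the 19, and its probe sets disagreed in direction. The brightest probe set, rc_AI010725_g_at, read 34290 in synaptosomes and 13187 in the hippocampus, 2.93-fold higher. Its partner on the same source sequence, rc_AI010725_at, read 14707 and 6331, 2.61-fold higher. A probe set from another source sequence, rc_AI235707_g_at, read 7163 and 1283, 6.28-fold higher. Its hippocampus reading is under the noise size of 5280.25, and with the floor at percentile 75 its ratio of 2.65 was 1.44. The probe set L18889_at went the other way, with 4233 in synaptosomes and 6055 in the hippocampus, a ratio of -0.35. The remaining one, rc_AA893328_at, read 649 and 370 and lay at the floor on both arrays. The 4 filtered probe sets therefore had 3 ratios above 1 and 1 below 0, with a mean of 1.31 ± 1.24 (SD between probe sets, n = 4).

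Hspa5 (chromosome 3, 38453016 to 38457475, plus strand) encodes BiP, the Hsp70 of the ER lumen and a sensor of unfolded proteins. Its probe set M14050_s_at read 11905 in synaptosomes and 9457 in the hippocampus, 1.42-fold higher. The probe set S63521_i_at read 4591 and 2469, 2.09-fold higher, with its hippocampus reading within the noise size. S63521_r_at read 568 and 262, at the floor on both arrays. Both measurable probe sets were thus higher in synaptosomes, with a mean ratio of 0.78 ± 0.40 (SD, n = 2). This mean was less than the within-gene SD.

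Calr (chromosome 19, 40213367 to 40218262, plus strand) encodes calreticulin, the soluble counterpart of calnexin and a calcium store of the ER lumen. D78308_at read 8962 in synaptosomes and 8213 in the hippocampus, a ratio of 0.30. D78308_g_at, from the same source sequence, read 8618 and 7421, a ratio of 0.39. X53363cds_s_at did not pass the filter and read 1255 and 904. All 3 readings were higher in synaptosomes, by less than the within-gene SD. Hspa5 and Calr had positive ratios with every filtered probe set, as did 31.9% of the 658 genes with several such probe sets.

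Without Canx the median of the ER probe sets was 0.44 over the 4 that remained. With both signals above the noise size it was 0.44 over 6. The ER median stayed above 0 under the 12 processing alternatives tried, from 0.30 to 0.78. The lowest value came without probe sets with a suffix letter, which left 3 probe sets, of Canx and Calr only. At the 2-fold rule Canx alone of the 3 ER genes was called with its brightest probe set.

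**Figure D2:**
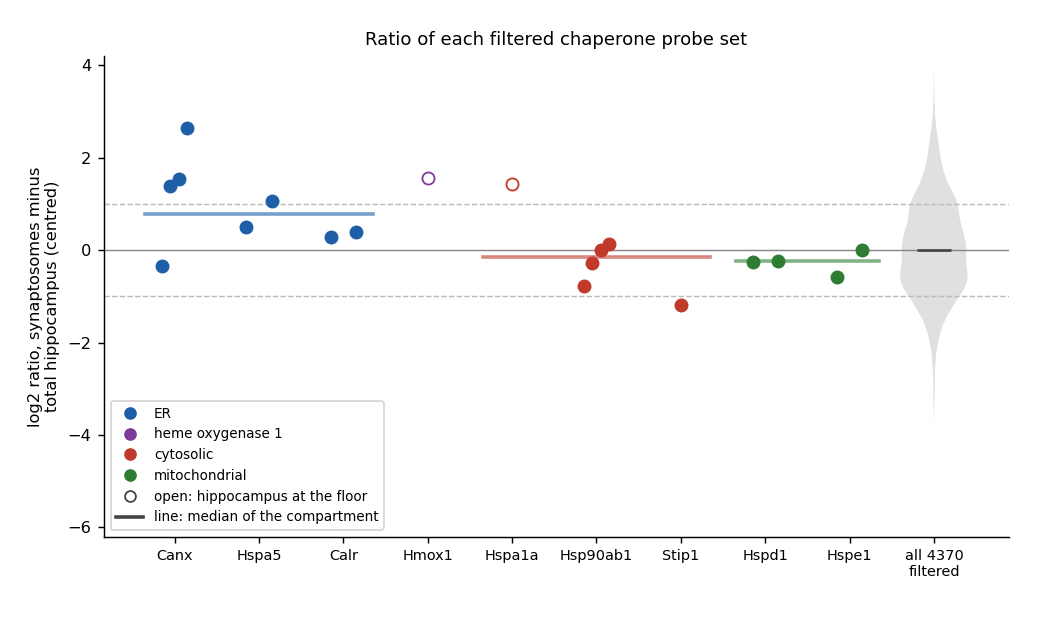
Log2 ratio of each filtered probe set by gene, coloured by compartment, with open circles where the hippocampus lies at the floor, horizontal bars for the compartment medians of 0.78, -0.14 and -0.24, dashed lines at 2-fold, and the distribution of all 4370 filtered probe sets at the right. Canx spans the range from -0.35 to 2.65, while the mitochondrial probe sets lie between -0.57 and 0.

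The cytosolic genes did not move as one. Hsp90ab1 (chromosome 9, 22930249 to 22935929, plus strand), the constitutive Hsp90, is represented by 4 probe sets, all far above the noise on both arrays. S45392_at read 41019 in synaptosomes and 46327 in the hippocampus. rc_AI236795_s_at read 51031 and 52273, and rc_AI007820_s_at read 50734 and 69053. These 3 had ratios of -0.01, 0.14 and -0.27. The fourth, rc_AI008074_s_at, read 29575 and 56963, a ratio of -0.78 or 1.71-fold lower. The mean ratio was -0.23 ± 0.40 (SD, n = 4), and 0 of the 4 probe sets reached 2-fold. The signs of 2 of the 4 turned to positive with loess correction and with quantile normalization, where S45392_at had ratios of 0.42 and 0.34 and rc_AI007820_s_at 0.33 and 0.33. Without centring rc_AI236795_s_at had a ratio of -0.03. The letter s in 3 of the 4 names marks probe sets that may also bind related sequences, so that a share of their signal may come from another Hsp90 transcript.

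Stip1 (chromosome 1, 213638641 to 213657654, minus strand) encodes Hop, the adaptor that passes clients from Hsp70 to Hsp90. Its probe set Y15068_at read 1745 in synaptosomes and 4483 in the hippocampus, 2.28-fold lower, the only probe set of the 19 at least 2-fold lower. Both readings lay within the noise size of their array, and with the floor at percentile 75 the ratio was -0.60.

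Hspa1a (chromosome 20, 3859756 to 3863800, plus strand) encodes the stress-inducible Hsp70. Its single probe set, Z75029_s_at, read 2034 in synaptosomes and 169 in the hippocampus, at least 2.71-fold higher. The synaptosome signal was under the noise size of 2912.6, so the bound is not a guaranteed minimum. Hspa1a has a near-identical neighbouring copy, Hspa1b, and the array cannot separate their transcripts with certainty. Of the probe sets annotated to both copies, rc_AA818604_s_at was at least 3.90-fold lower and L16764_s_at had a ratio of 0.37. Hmox1 (chromosome 19, 13452365 to 13479823) encodes heme oxygenase 1, a membrane enzyme that degrades heme and is induced by oxidative stress. rc_AI179610_at read 2231 in synaptosomes and 715 in the hippocampus, at least 2.97-fold higher, and J02722cds_at read -68 and -679, at the floor on both arrays. The 1 filtered probe set of each of these stress-inducible genes thus had a synaptosome signal over the floor and a hippocampus signal under it. Every reading was inside the noise.

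Hspd1 and Hspe1 encode Hsp60 and its lid Hsp10, the mitochondrial chaperonin. For Hspd1, X54793_at read 7863 in synaptosomes and 10519 in the hippocampus, a ratio of -0.25. Its other probe set, rc_AA858640_s_at, read 7198 and 9483, a ratio of -0.23. The 2 probe sets differed from each other by far less than probe sets of one gene usually do, with a mean ratio of -0.24 ± 0.02 (SD, n = 2). For Hspe1, rc_AI170613_at read 26193 and 29535, a ratio of 0.00, and rc_AI170613_g_at, from the same source sequence, read 25646 and 42941, a ratio of -0.57. All 4 synaptosome readings were below the hippocampus readings, by at most 1.49-fold after centring. Every filtered probe set was negative in 27.1% of the genes with several. The median of the 4 stayed below 0 in the 11 alternatives tried, from -0.41 to -0.13, while rc_AI170613_at turned to 0.16 with loess correction and 0.09 with quantile normalization.

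The ratio varied with the mean signal of both arrays, and several chaperones are among the bright probe sets. When the filtered probe sets were split into deciles of mean signal, the median ratio was -0.25 in the top decile and 0.12 in the next, while in the dimmest decile it was -0.51 and in the one above that -0.30. Set against the median of their own decile, the ER probe sets had a median difference of 0.69, the mitochondrial ones -0.33 and the cytosolic ones 0.11. The order of the ER and mitochondrial groups was thus the same on this scale, and the cytosolic median changed sign.

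**Figure D3:**
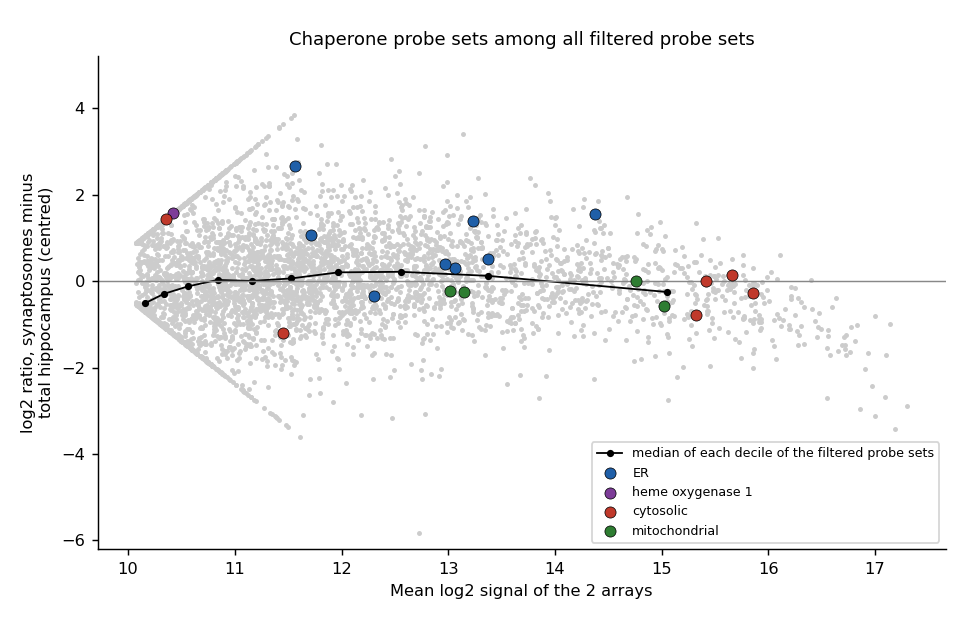
Log2 ratio against the mean log2 signal of both arrays for all 4370 filtered probe sets (grey), with the chaperone probe sets coloured by compartment and a black line through the median of each decile, which ends at -0.25. The 4 Hsp90ab1 probe sets lie at the bright end around that line, and 7 of the 8 ER probe sets lie above it.

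**Figure D4:**
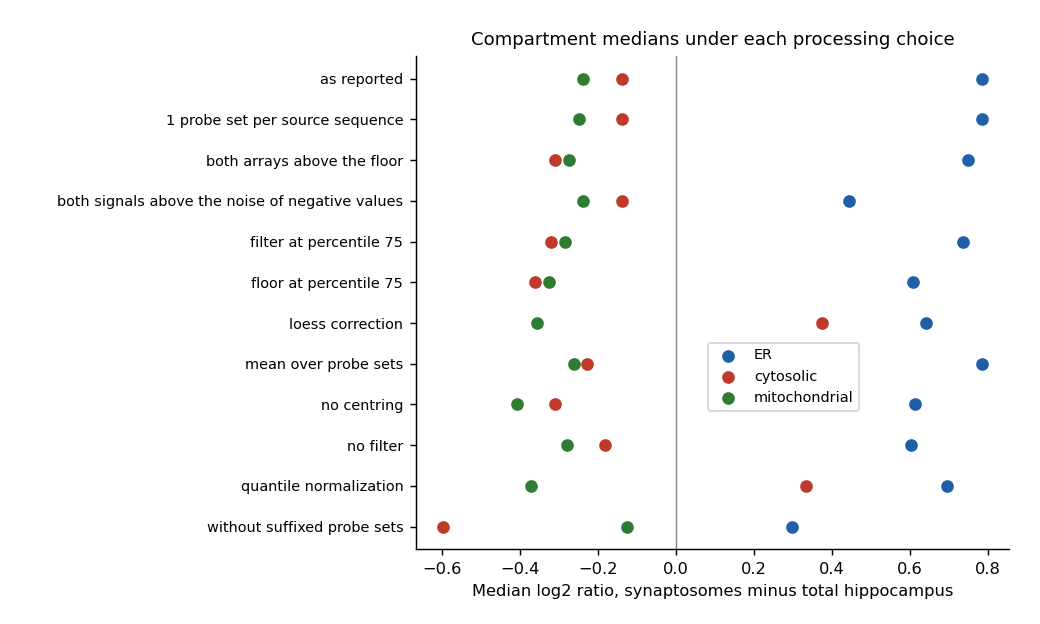
Median log2 ratio of the ER, cytosolic and mitochondrial probe sets as reported and under 11 processing alternatives, 1 per line. The ER medians lie right of 0 and the mitochondrial medians left of it on every line, while the cytosolic median crosses to 0.33 and 0.37 with quantile normalization and loess correction.

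Taking the brightest filtered probe set of each gene, the 2-fold rule called 3 of 9 genes higher (Canx, Hmox1 and Hspa1a) and 1 lower (Stip1), where 19.1% and 14.3% of all 2735 genes were. With only genes above the floor on both arrays, Canx was the 1 that remained higher. Among all genes the calls were 522 higher and 391 lower, and 403 and 532 without centring, while the 3 and 1 for the chaperones were the same counts in both. The share of members past 2-fold is too small a count to set apart from the background.

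Other genes of protein folding and of the stress responses were taken from lists of 132 genes, of which 66 had a probe set with 1 symbol and 53 passed the filter. Of these 53, 7 passed 2-fold on the higher side and 6 on the lower, with a median of 0.00, against 19.1% and 14.3% over all genes. The 53 include 7 regulators of the heat shock and unfolded protein responses and 6 genes of heme breakdown and oxidative stress. Over the 40 that remain without these, the median was 0.02, with 7 at least 2-fold higher and 4 lower. With both signals above the noise size, 0 of the 16 related genes left were at least 2-fold higher and 2 were lower, beside 59 and 76 of 746 genes over all. The 2 were Eif2s1 and Nqo1. All 7 genes called higher had a hippocampus reading within the noise size, so the bounds given for them below are not guaranteed minima.

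Further Hsp70 and Hsp110 genes had a median of 0.78 over 5, with 2 at least 2-fold higher and 0 lower. Over all genes 19.1% were higher and 14.3% lower. Each list, here and below, is too short for its count to be set apart from these shares. Hspa13, an Hsp70-like ATPase of the ER, read 3354 in synaptosomes and -1235 in the hippocampus, at least 4.46-fold higher. The hippocampus noise size of 5280.25 exceeds this synaptosome signal, so the bound is not a guaranteed minimum. Hyou1, the large Hsp70 relative of the ER, was 3.15-fold higher with 1 probe set, at 4482 and 1603, and at least 1.52-fold lower with another, at 743 and 1444. Hsph1, the cytosolic Hsp110, had a ratio of 0.78 with 1 probe set and was at least 1.95-fold lower with the other, at 777 and 1857. Hspa9, the mitochondrial Hsp70, had a ratio of 0.58 with its brightest probe set and of -0.08 with another.

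J proteins and nucleotide exchange factors, which drive the ATP cycle of Hsp70, had a median of 0.76 over 9. Of the 9, 3 were at least 2-fold higher and 0 lower, where 19.1% and 14.3% of all genes were. Dnajb5 was 3.37-fold higher, with signals of 4808 and 1603. Bag6, whose role as an exchange factor was not examined here, was at least 2.72-fold higher. Dnajc1 was at least 2.11-fold higher, and both had the hippocampus at the floor. Dnajc5, or cysteine string protein, the J protein of synaptic vesicles, read 12395 in synaptosomes and 8237 in the hippocampus, a ratio of 0.76, while another of its probe sets read 219 and 2386. Grpel1, the mitochondrial exchange factor, had a ratio of -0.77.

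Other Hsp90 proteins and Hsp90 cochaperones had a median of -0.67 over 6. Of the 6, 3 were at least 2-fold lower and 0 higher, where 14.3% and 19.1% of all genes were. The 3 were Ppid, a cyclophilin that binds Hsp90, at 2.84-fold lower, Chordc1 at least 2.52-fold lower and Fkbp4 at least 2.52-fold lower with its brightest probe set. Another Fkbp4 probe set had a ratio of 0.24. Their readings were 1273 and 4065 for Ppid, 699 and 2400 for Chordc1, and 789 and 2396 for the brightest Fkbp4 probe set. All of these lay within the noise size of their array. St13, or Hip, an Hsp70 cochaperone, had a ratio of -0.01 with its brightest probe set, and another read 678 and 3475. Stip1, a cochaperone of the same cycle, was lower too, also with both readings within the noise size. Hsp90b1, the Hsp90 of the ER lumen, had ratios of 0.05, 0.72 and 0.76 with its 3 probe sets, and Cdc37, which loads kinases onto Hsp90, had one of 0.54.

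ER folding enzymes and lectins had a median of -0.09 over 13. Of the 13, 2 were at least 2-fold higher and 1 lower, where 19.1% and 14.3% of all genes were. Pdia2, a disulfide isomerase, was at least 2.48-fold higher and Rcn2, a calcium-binding protein of the ER, 2.32-fold higher. Mogs, which trims the first glucose from glycoproteins, had ratios of 0.97 and 0.92, and P4hb, a disulfide isomerase, ratios of 0.77 and 0.89. Pdia3, the isomerase that works with calnexin and calreticulin, had a ratio of 0.83 with its brightest probe set, while another read 834 and 1969. Erp29, a chaperone of secreted proteins, was the gene past 2-fold on the lower side, with 524 in synaptosomes and 3804 in the hippocampus, and Fkbp2, a prolyl isomerase, had ratios of -0.43 and -0.54.

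Small heat shock proteins had a median of -0.43 over 5 with 0 past 2-fold. Cryab, or αB-crystallin, which is prominent in glia, read 7486 in synaptosomes and 14968 in the hippocampus, and its other probe set gave a similar ratio, -0.91 beside -0.83. Regulators of the heat shock and unfolded protein responses had a median of -0.64 over 7. Of the 7, 0 were at least 2-fold higher and 1 lower, where 19.1% and 14.3% of all genes were. Eif2s1, the translation factor whose phosphorylation slows protein synthesis under ER stress, was 2.93-fold lower, with signals of 4204 and 13843. Ddit3, or CHOP, had a ratio of -0.80 and Trib3, one of its targets, -0.64, while Hsf1, the heat shock factor, had one of 0.01. The chaperonin and prefoldin list had only Cct3 and Cct6a past the filter, with ratios of 0.07 and -0.39. Genes of heme breakdown and oxidative stress had a median of 0.11 over 6, which was -0.06 without centring, and their 1 call was Nqo1, a quinone reductase, at 2.10-fold lower. Hmox2, the constitutive heme oxygenase, had a ratio of 0.09. The other 7 lists of folding and stress genes kept the sign of their median without centring, with quantile normalization and with loess correction.

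**Figure D5:**
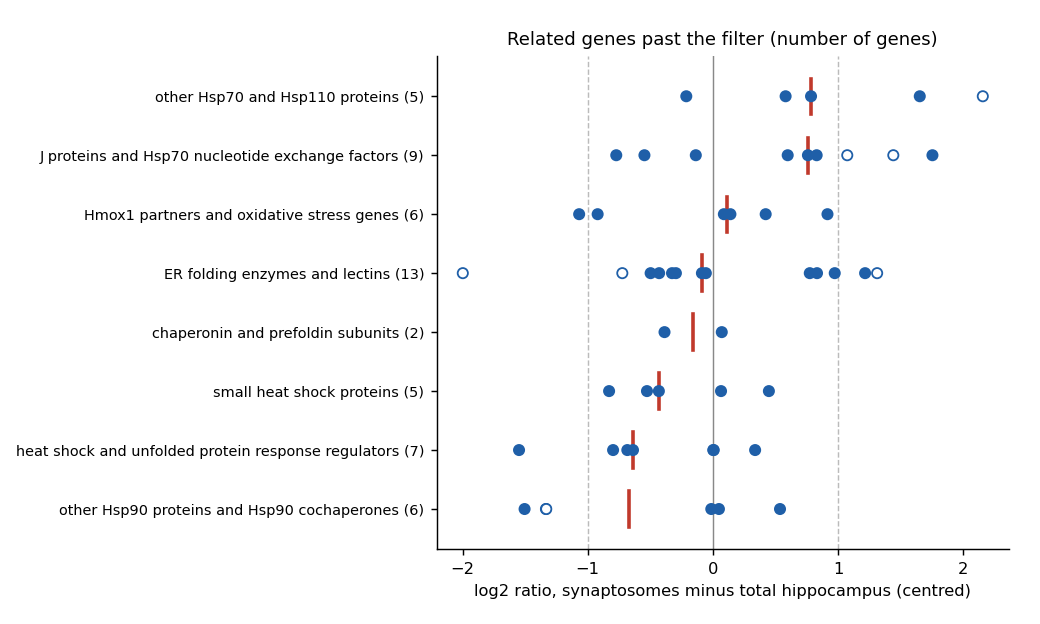
Log2 ratio of each related gene past the filter (circles; open where 1 array is at the floor) in 8 lists, with the number of genes in brackets and a red bar at each median. The Hsp70 and J protein medians lie near 0.78 and 0.76, and those of the Hsp90 cochaperones and stress regulators near -0.67 and -0.64.

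Genes with the ER stress response element in their window were followed on the arrays as a group. Of 21 named genes with it, 6 passed the filter, the 3 members and Hsp90b1, Ero1b and Hnrnpa3. Apart from the members the brightest probe sets had ratios of 0.05 for Hsp90b1 and 0.21 for Hnrnpa3, and the other Hsp90b1 probe sets 0.72 and 0.76. Ero1b was at least 1.65-fold lower, with a synaptosome signal of 649, under the floor. Of 218 genes with the heat shock element 16 passed, and the 14 that are no members had a median of -0.34. Among these 14, 1 was past 2-fold on the higher side and 3 on the lower, where 19.1% and 14.3% of all genes were. The 3 lower ones, Crispld2, Ghrhr and Chordc1, had both readings within the noise size, and the higher one, Phrf1, its hippocampus reading. Dnaja1, a cytosolic J protein with this element, had ratios of -0.55 and -0.47 with its 2 probe sets. Hsph1, which also has it, had a ratio of 0.78 with its brightest probe set and was at least 1.95-fold lower with another.

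Cell type markers were measured beside the chaperones. Neuronal markers had a median ratio of 0.46 over 10 genes, 7 positive and 3 negative, with 1 at least 2-fold higher and 1 lower. The higher one was Syn2, at 2.14-fold. The lower one was Snap25, 2.96-fold lower at 32782 in synaptosomes and 109086 in the hippocampus, with every probe set negative. The marker Slc17a7 was at the floor on both arrays. Oligodendrocyte and myelin genes had a median of -0.75 over 6, with 3 at least 2-fold lower and 1, Cnp, 2.67-fold higher. Vascular and blood genes had a median of -1.21 over 5, with 4 at least 2-fold lower and 0 higher. Over all genes 19.1% were at least 2-fold higher and 14.3% lower. The summed signal of the vascular list was 12530 in synaptosomes and 50608 in the hippocampus, that of the myelin list 29296 and 49584, and that of the neuronal list 178034 and 205902. Of the vascular sums, the blood globin gene Hbb alone gave 6811 and 35126, while Pecam1 of the same list had a ratio of 0.38. Astrocyte genes had a median of -0.17 over 7, which was 0.23 with quantile normalization and 0.29 with loess correction. Of these 7 genes, 1 was at least 2-fold higher and 1 lower. Interneuron, microglia and choroid plexus lists had medians of -0.17 over 4, 0.15 over 2 and -0.52 over 3, and the microglia median was -0.02 without centring. In the same order, 1, 0 and 1 of their genes were at least 2-fold higher and 2, 0 and 0 lower. In bulk samples fewer cells of a type and less RNA per cell cannot be told apart, and the part of cell composition in the chaperone ratios was not tested.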

How the data were processed

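RNA of hippocampal synaptosomes and of the whole hippocampus was measured on 1 array each. Per the labels' protocols, RNA was purified on columns, amplified as SMART cDNA from a poly(A)-directed primer with a T7 sequence, and transcribed into biotin-labelled cRNA. The authors deposited linear intensity values for 8799 probe sets; for the scanner software and the background correction, the sources used here give no name. The mean after trimming 2% at each end was 2482 in synaptosomes and 2475 in the hippocampus, so no further scaling was applied before the floor, log2 and centring described above. Gene symbols came from the platform's annotation, and updating them through the RefSeq gene table of GRCr8 changed 0. Promoter letters are RefSeq's. The genes in the compared set and the lists were chosen with earlier results of these data known. Every probe set of the 10 genes is reported; from each list up to 4 filtered genes farthest in each direction could be named, and others were named after their values were seen. The ratio of a gene is that of its filtered probe set with the highest mean level. With 1 array per group there is no p-value, and the number of arrays limits the precision. Alternatives were another floor, no centring, quantile normalization, loess correction, other filters, the mean over probe sets and leaving out probe sets with a suffix letter. Alternatives with 1 probe set per source sequence, with both signals above the noise, and without Canx were added after seeing the data. The calculation of the ratios was checked on hippocampus values scaled by a constant, with known changes and no noise added. Only probe sets above the floor were checked, so this tests the arithmetic and not the accuracy of the measured ratios. Python 3.11.15, NumPy 2.4.6, pandas 2.3.3, statsmodels 0.14.6 and matplotlib 3.10.9 were used.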

Additional observations from a re-analysis of the deposited data

How the results depend on the processing

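Over the alternatives run, the ER median ranged from 0.30 to 0.78, the mitochondrial from -0.41 to -0.13 and the cytosolic from -0.60 to 0.37. The 3 changes of scaling (no centring, quantile normalization and loess correction) gave 57 ratios for the 19 probe sets. Of these, 7 changed sign, in 4 probe sets of Hsp90ab1 and Hspe1. The ratio of Canx rc_AI235707_g_at was 1.44 with the floor at percentile 75. Counts past 2-fold shrank where fewer genes or smaller ratios were left by construction. Genes of the set at least 2-fold higher numbered 1 with both arrays above the floor, with the filter at percentile 75, with the floor at percentile 75 and with both signals above the noise, of 7, 7, 7 and 6 genes left, and those lower numbered 0 with the floor at percentile 75 and with both signals above the noise. Under the same 4 settings, in the order both arrays above the floor, filter at percentile 75, floor at percentile 75 and both signals above the noise, related genes numbered 3, 3, 0 and 0 higher and 3, 2, 3 and 2 lower of 45, 34, 41 and 16 left, and all genes 294, 202, 173 and 59 higher and 249, 161, 136 and 76 lower of 2184, 1400, 1719 and 746. The cause of the cytosolic median's change of sign was not tested. No paired analysis was possible because each group has 1 array and no test was made. Signals under 2912.6 in synaptosomes or 5280.25 in the hippocampus cannot be told from noise, which limits Hspa1a, Hmox1, Stip1, and Canx rc_AI235707_g_at and Hspa5 S63521_i_at, 2 of the 4 ER probe sets at least 2-fold higher.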

Other observations

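Probe sets with 2 symbols were left out of the comparison, and those that list Hspa8 belong here. Hspa8 encodes Hsc70, the constitutive Hsp70 that also uncoats clathrin vesicles, and its annotation is shared with Haus8l2. M11942_s_at read 44693 in synaptosomes and 80821 in the hippocampus, a ratio of -0.68, and rc_AI234604_s_at read 48612 and 130780, a ratio of -1.26. Both readings were lower in synaptosomes, and in the decile of probe sets with the highest mean signal the median ratio was -0.25. The signal cannot be assigned to either gene.

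Of the 4 probe sets shared by Hspa1a and Hspa1b, 2 were at the floor on both arrays. L16764_s_at read 1881 in synaptosomes and 1636 in the hippocampus, a ratio of 0.37, and rc_AA818604_s_at read 147 and 3709, at least 3.90-fold lower. The latter differs in direction from the Hspa1a probe set Z75029_s_at, and each of these readings lay within the noise size of its array. For Hsp90aa1, the inducible Hsp90, 2 probe sets shared with a pseudogene read 14750 and 19874, and 38859 and 33596, with ratios of -0.26 and 0.38.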
